A study of Caenorhabditis elegans with 2 samples.

Results

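This account covers the SCC-1 peaks on chromosome IV, that is, every entry of the authors' peak list for the SCC-1 ChIP library that is placed on that chromosome. They numbered 1194 of 6780 peaks in the list. SCC-1 binding was mapped by ChIP-seq, in which crosslinked chromatin is enriched with an antibody and its DNA sequenced, in whole adult Caenorhabditis elegans hermaphrodites of genotype fem-2(b245)III, kept at 20 °C per the labels. The series comprised 2 libraries, 1 of SCC-1 ChIP and 1 of input DNA, both from this strain, with no wild-type or untreated library among them. The labels name the stage as young adults with a germline, but the worms were harvested gravid according to the growth protocol. The antibody was a rabbit polyclonal against a fragment of SCC-1. Whole animals mix germline and somatic nuclei, so a site bound in few cells and a site bound weakly in many cannot be told apart.

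Cohesin is a ring of paired SMC proteins closed by a kleisin subunit, and it holds sister chromatids together and shapes chromatin loops. SCC-1 is the kleisin of mitotic cohesin in the worm, while other kleisins of the same family act in meiosis and in differentiated cells. Worm autosomes have gene-rich central regions flanked by arms in which repeats are more common and meiotic exchange is more frequent. Chromosome IV is also known for the large clusters of genes for 21U-RNAs, the piRNAs of the worm germline. The gene fem-2, whose mutation all samples carry, lies on chromosome III and encodes a phosphatase of the sex-determination pathway.

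All positions are on the build WormBase WS220, as deposited, and peaks were not assigned to genes. Read counts were not analysed here, so the depth behind each peak is unknown, and with 1 ChIP library there is no spread between samples. Values of chromosome IV are therefore set beside those of each other autosome, and 95% intervals (exact binomial for shares and ratios, exact Poisson for densities) cover counting error only. These intervals treat peaks as independent, although neighbouring peaks of 1 library share their source, so no p-value is given. No chromosome is a replicate of another.

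Chromosome IV carried an intermediate number of SCC-1 peaks for its length. Its peaks spanned 17.5 Mb from base 1 to base 17461926, at 68.4 peaks per Mb. It held 17.6% of all peaks (95% interval 16.7% to 18.5%) on 17.4% of the mapped span. Both shares count chromosome X, which was sparser than every autosome, with 508 peaks at 28.7 per Mb. Chromosomes III and I were denser, with 101 and 97.8 peaks per Mb, chromosome II was close with 73.6, and chromosome V was sparser with 52.3. Against the other 4 autosomes together the density ratio of chromosome IV was 0.874 (0.820 to 0.931). That ratio depended on the dense chromosomes: it was 0.946 (0.885 to 1.01) without I and 0.949 (0.889 to 1.01) without III, and both intervals included 1. Against chromosome II alone it was 0.929, with an interval from 0.855 to 1.01 that included 1. Peaks covered 2.19 Mb of chromosome IV, or 12.5% of its span, where the other autosomes ran from 8.93% on V to 18.3% on III.

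Among the peaks of highest score in the list the density of chromosome IV was close to that of the other autosomes pooled, though not to that of each. The deposited score is the authors' own value for each peak and its scale is not named. On chromosome IV the scores ran from 50.3 to 3228, with a median of 561 and the middle 50% between 153 and 2570. Scores piled up at exactly 3100, a value shared by 245 peaks of chromosome IV, with 12 more above it, so the top of the list is not resolved. These 257 peaks made up 21.5% of the peaks of chromosome IV (19.2% to 24.0%), against 18.2% (17.1% to 19.2%) of those of the other 4 autosomes. The single autosomes lay at 17.3% on I, 20.9% on II, 17.4% on III and 17.5% on V, so chromosome II was again the nearest. Among the top 25% of all peaks by score, the density ratio of chromosome IV to the other autosomes pooled was 1.00 (0.887 to 1.13). That pool includes the sparse chromosome V. Peaks with a score of 3100 or more numbered 255 on the 15.1 Mb of I and 234 on the 15.2 Mb of II. There were 242 on the 13.8 Mb of III and 191 on the 20.9 Mb of V. For its 17.5 Mb, chromosome IV thus held fewer of them than I, II and III and more than V.

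**Figure D1:**
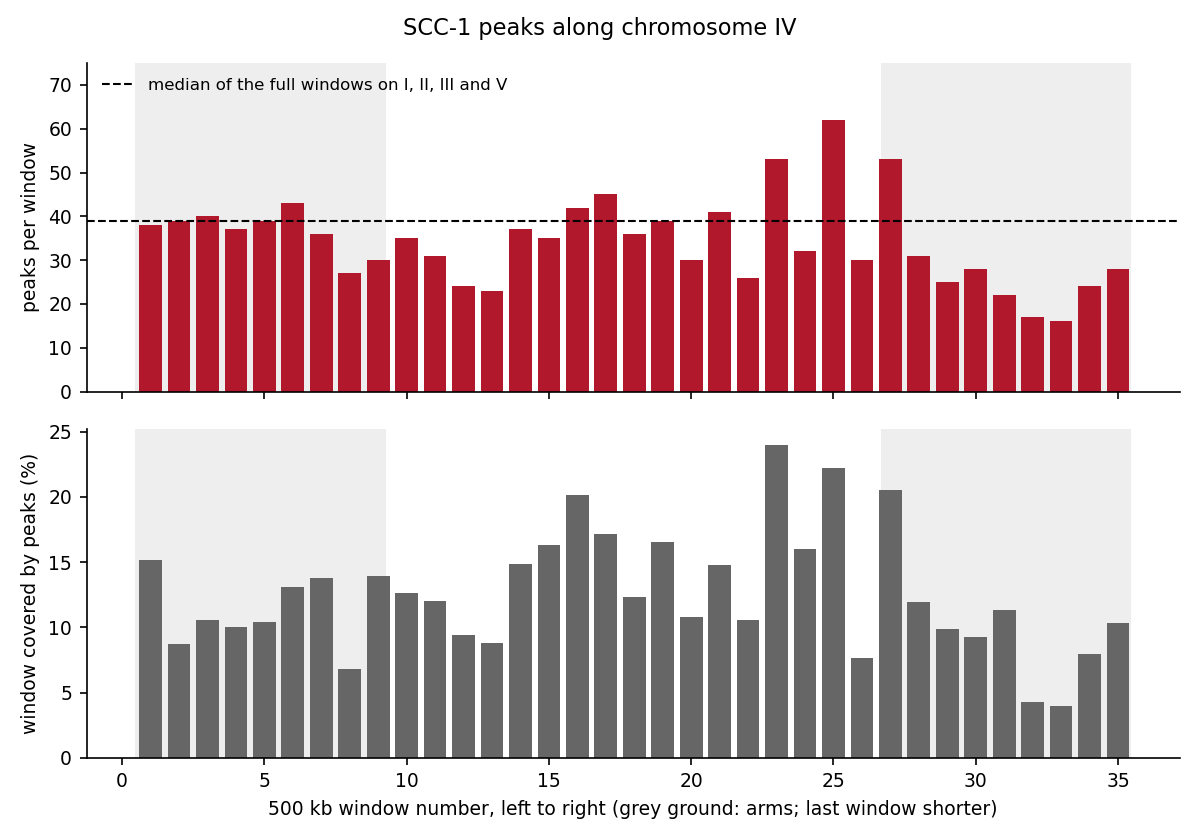
Peaks per 500 kb window along chromosome IV (upper panel, red bars) and the share of each window covered by peaks (lower panel, grey bars), by window number from the left end, with the arms on a grey ground and the median of the full windows of the other 4 autosomes as a dashed line at 39 peaks. The 3 tallest bars, windows 25, 23 and 27 with 62, 53 and 53 peaks, stand with lower windows between them, and windows 32 and 33 with 17 and 16 peaks are the lowest.

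In fixed windows of 500 kb counted from base 1, chromosome IV showed an even left end, a strongly uneven stretch right of its middle and a sparse right end. Its 34 full windows held between 16 and 62 peaks, with a median of 35 and the middle 50% between 27.25 and 39, whereas the 127 full windows of the other 4 autosomes had a median of 39 and the middle 50% between 26.5 and 50. The standard deviation was 10.1 peaks on a mean of 34.3, a coefficient of variation of 29.4%. That lay between chromosomes III (21.2%) and I (23.4%) on one side and V (33.9%) and II (34.5%) on the other. The variance was 2.96 times the mean, and this ratio ran from 2.25 on III to 4.39 on II.

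The fullest window of chromosome IV lay between 12 and 12.5 Mb and held 62 peaks, which covered 22.2% of it. It was followed by the windows from 11 to 11.5 Mb and from 13 to 13.5 Mb, each with 53 peaks, covered to 24.0% and 20.5%. No other window of the chromosome held more than 45 peaks. The windows between them were much emptier, with 32 peaks from 11.5 to 12 Mb and 30 peaks from 12.5 to 13 Mb. On this grid, full and ordinary windows thus alternated over the 2.5 Mb from 11 to 13.5 Mb. The alternation may depend on where the windows begin, and it was not examined with windows placed elsewhere. In 100 kb windows the same stretch ran from 1 peak, from 11700001 to 11800000 and from 12900001 to 13000000, to 18 peaks, from 11100001 to 11200000. The 3 adjoining windows of 100 kb from 12000001 to 12300000 held 16, 15 and 16 peaks. The emptiest windows of 500 kb were those from 16 to 16.5 Mb with 16 peaks, from 15.5 to 16 Mb with 17, and from 15 to 15.5 Mb with 22. These sparse windows adjoined each other near the right end, and peaks covered 3.99%, 4.28% and 11.4% of them.

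For description, the windows were joined into 5 stretches, chosen after their counts were seen, so that their differences carry no test. On the 500 kb grid the first 3.5 Mb was even, with 36 to 43 peaks in each of 7 windows and 77.7 peaks per Mb. In windows of 100 kb it was not even. Counts there ran from 1 peak, from 3400001 to 3500000, to 20 peaks, from 2600001 to 2700000. From 3.5 to 6.5 Mb the density was 56.7 peaks per Mb, and from 6.5 to 11 Mb it was 73.6. The stretch from 11 to 13.5 Mb, uneven on the 500 kb grid, was the densest, with 92.0 peaks per Mb. The remaining 3.96 Mb to the right end was the sparsest, with 48.2. The sparse stretches were not the weakest in score. Peaks with a score of 3100 or more were 25.9% of those from 3.5 to 6.5 Mb and 27.7% of those right of 13.5 Mb, against 16.5% in the dense first 3.5 Mb and 20.4% from 11 to 13.5 Mb.

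**Figure D2:**
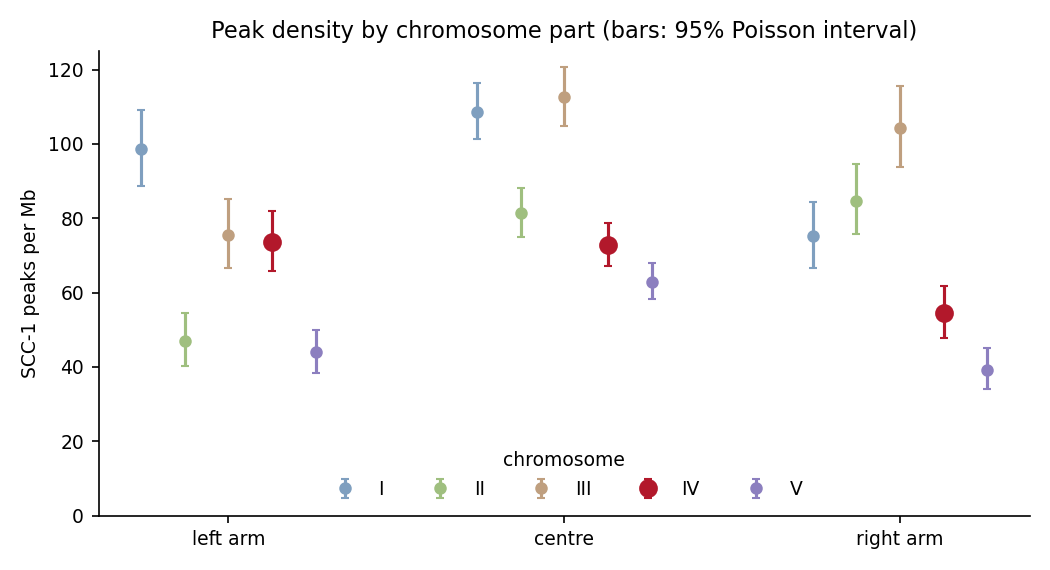
Peak density in peaks per Mb in the left arm, centre and right arm of the 5 autosomes, each point with its 95% Poisson interval. On chromosome IV (large red points) the left arm (73.5) and the centre (72.7) lie together and the right arm (54.5) lies below them.

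When the span was divided into the outer 25% at each end as arms and the middle 50% as centre, the left arm of chromosome IV was close to the centre in peak density, and the right arm was sparser. The left arm, up to 4365481, held 321 peaks, or 73.5 per Mb (95% Poisson interval 65.7 to 82.0). The centre held 635, or 72.7 per Mb (67.2 to 78.6), and the right arm, from 13096446, held 238, or 54.5 per Mb (47.8 to 61.9). Relative to the centre, the density was 1.01 in the left arm (0.881 to 1.16) and 0.750 in the right arm (0.643 to 0.871). The ratio of both arms to the centre was 0.880 (0.784 to 0.988), the highest of the autosomes, which otherwise ran from 0.662 on V to 0.810 on II. The interval of chromosome IV overlapped those of chromosomes I, II and III, which reached 0.887, 0.912 and 0.889, and not that of V, which reached 0.748. An arm close to the centre in density was also present on chromosome I, where the left arm stood at 0.907 of the centre, and on II and III, where the right arms stood at 1.04 and 0.926.

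The emptiest windows of the chromosome, 32 and 33 from 15.5 to 16.5 Mb, lay in the right arm. Without them the ratio of arms to centre came to 0.935 (0.832 to 1.05, which includes 1) and the left to right ratio was 1.21 (1.01 to 1.45), against 1.35 (1.14 to 1.60) with all windows. These windows were picked for their low counts, which fixed the direction of the change in advance, so the values only describe its size.

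Although the left arm and the centre were close in density, their peaks had different median widths. The median width on chromosome IV was 1108 bp in the left arm, 1337 bp in the centre and 1286 bp in the right arm. Peaks covered 11.1% of the left arm, 14.6% of the centre and 9.78% of the right arm. Peaks of 5 kb or wider made up 2.80% of the left arm (1.29% to 5.26%), 5.98% of the centre (4.27% to 8.12%) and 4.62% of the right arm (2.33% to 8.12%), so these intervals overlapped. The order of the medians was the same among the 257 peaks with a score of 3100 or more, with 2417 bp in the left arm, 3604 bp in the centre and 2661.5 bp in the right arm. Below that score the medians were 995, 1133 and 1078.5 bp. The centre also had the largest median width on each of the other 4 autosomes, from 1307 bp on V to 1446.5 bp on II over all peaks. The same held among their peaks with a score of 3100 or more, with central medians from 3170 bp on V to 3619 bp on III. It held below that score as well, so wider central peaks were not particular to chromosome IV.

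**Figure D3:**
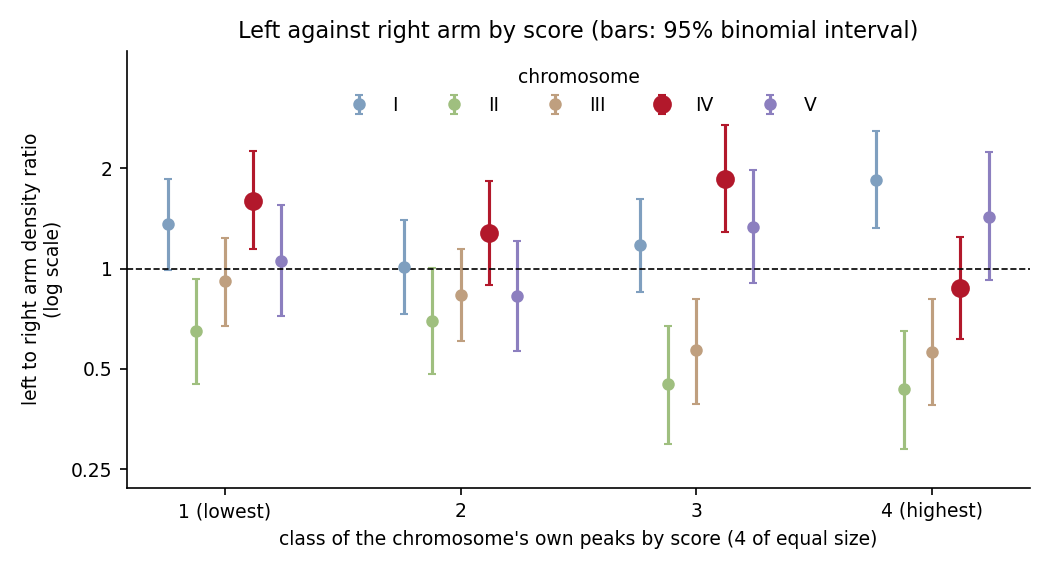
Ratio of left arm to right arm density (log scale) in 4 equal classes of each autosome's own peaks by score, with 95% binomial intervals. On chromosome IV (large red points) the ratio is 1.60, 1.28 and 1.85 in the lower classes and 0.877 in the highest.

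The surplus of the left arm over the right arm of chromosome IV was carried by peaks of low and middle score. The peaks of the chromosome were split by score into 4 classes of equal size. In the class of lowest scores, 50.3 to 152, the left arm held 96 peaks and the right arm 60, a ratio of 1.60 (1.15 to 2.25). In the next class the counts were 74 and 58, a ratio of 1.28 (0.893 to 1.83), and in the third 87 and 47, a ratio of 1.85 (1.28 to 2.70). In the highest class, with scores from 2580, the order was the opposite, with 64 peaks on the left and 73 on the right, a ratio of 0.877 (0.617 to 1.24) whose interval included 1. The lower 3 classes together gave 1.56 (1.28 to 1.91), and that interval did not overlap the one of the highest class. The classes were compared after the peak list had been examined, and their difference was not tested.

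On each other autosome the point values of the lower 3 classes pooled and of the highest class lay on the same side of 1. On chromosome I the ratio was 1.18 (0.982 to 1.41) in the lower classes together and 1.84 in the highest. On V it was 1.05 and 1.43, although the second class of V alone stood at 0.828 (0.564 to 1.21). Both intervals of V and that of the lower classes of I included 1, so these show no order of the arms. On chromosome II the ratio was 0.597 and 0.435, and on III it was 0.776 and 0.563, with all intervals below 1. By point values, chromosome IV was thus the one autosome on which the pooled lower classes and the highest class lay on opposite sides of 1. The interval of its highest class included 1, and the difference between chromosomes was not tested. In shares of each arm of chromosome IV, 26.9% of right arm peaks (21.4% to 33%) and 17.4% of left arm peaks (13.5% to 22.05%) had a score of 3100 or more, with the centre at 21.6% (18.4% to 24.98%). The intervals of the arms overlapped slightly.

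**Figure D4:**
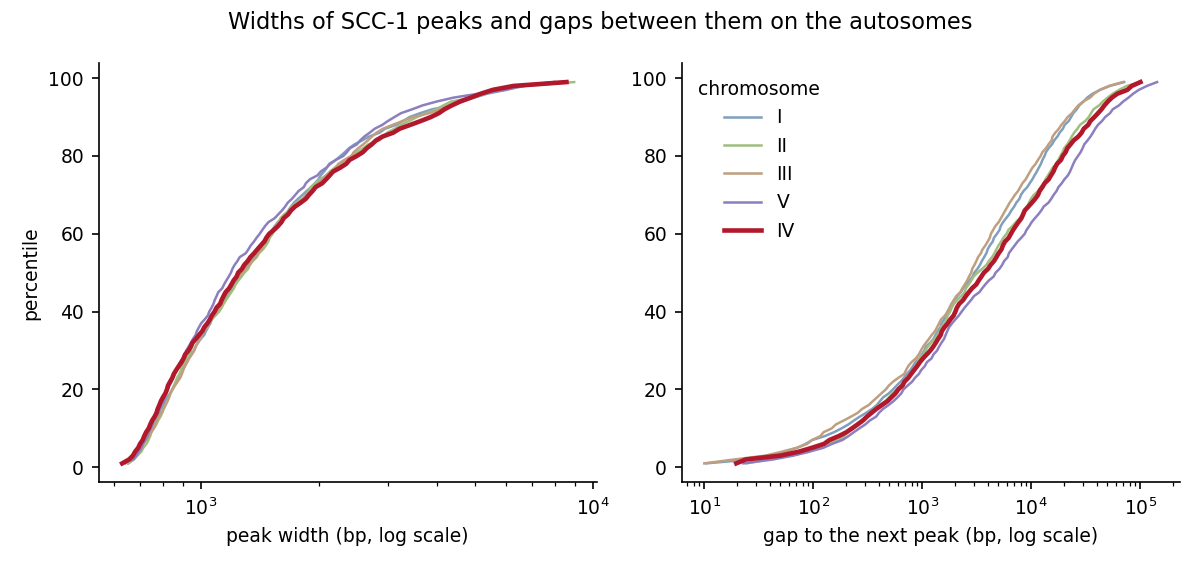
Percentiles of peak width (left) and of the gap from the end of a peak to the start of the next (right), both in bp on log scales, for the 5 autosomes. The widths of chromosome IV (thick red line, median 1246 bp) run with those of the others, while its gaps (median 3.69 kb) lie between those of chromosomes III and V.

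In median width the peaks of chromosome IV were close to those of the other autosomes. Their widths ran from 477 to 12666 bp, with a median of 1246 bp and the middle 50% between 866.5 and 2132 bp. The medians of the other autosomes ran from 1194.5 bp on V to 1293 bp on II. The 90th percentile was higher on chromosome IV, 3860 bp against 3118 bp on V to 3559 bp on II, but further up its place varied. The 95th percentile was 4881 bp, against 4411 bp on V to 4982 bp on I. The 98th was 6268 bp, below the 6516 to 6689 bp of the others. The 99th was 8562 bp, within the range from 7960 bp on V to 8958 bp on II. Peaks under 1 kb made up 34.6% of the 1194 but 15.1% of their covered length, and their median score was 122. The 274 peaks from 2 kb up to 5 kb gave 38.1% of the covered length and had a median score of 3084. Width and score therefore went together on chromosome IV. From the lowest to the highest of the 4 score classes the median width was 774, 1122.5, 1538 and 2798 bp. The part of width in the scores was not tested.

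Broad peaks of 5 kb or more numbered 58 on chromosome IV, or 4.86% (3.71% to 6.23%), near the 4.69% (4.12% to 5.30%) of the other 4 autosomes. They held 18.4% of the covered length. The centre held 38 of them, the right arm 11 and the left arm 9. Of the 58, 53 had a score of 3100 or more. The window from 11 to 11.5 Mb, the one with the highest covered share, held 5 of them.

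Most of the widest peaks of chromosome IV had top scores, but the first and second widest did not. The widest, 12666 bp, lay in the left arm from 3039432 to 3052097 with a score of 2448. The second, 11956 bp, lay in the centre from 7134149 to 7146104 with a score of 1314. Both scores lay below the value at which the list piles up. The next 3 had scores of 3100 and lay from 6903353 to 6915002 (11650 bp), from 7477377 to 7488976 (11600 bp) and from 416645 to 428226 (11582 bp). Of these 5 peaks, 3 lay within the 586 kb between 6903353 and 7488976, and the others lay apart in the left arm. Of all 36 peaks of 10 kb or more in the list, 8 lay on chromosome IV, of which 5 were central, 2 on the left and 1 on the right. The sixth widest, 10640 bp from 9989291 to 9999930, was also the sixth by score, at 3164. The pair named first were the only ones of these 8 below 3100, and on the other 4 autosomes 7 of 27 such peaks were below it.

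Some broad peaks belonged to longer bound stretches cut by short gaps. The widest peak was preceded by a gap of 255 bp and followed by one of 518 bp, and it was 1 of 6 peaks in a run from 3030938 to 3056553 that was 25.6 kb long and 90.9% covered. When neighbours 500 bp or less apart were merged, 4 peaks of this run joined into 1 region of 21160 bp, the widest of chromosome IV. The widest merged region on any other autosome, on chromosome I, was 21021 bp. The second merged region, 15194 bp from 15035008 to 15050201, lay in the right arm and joined 2 peaks. Merging left 988 regions on chromosome IV, of which 96, or 9.72%, were 5 kb or wider. On the other autosomes that share ran from 7.57% on V to 10.5% on III.

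The 5 highest printed scores of chromosome IV belonged to peaks between 1018 and 5542 bp wide, 3 of which were wider than 75% of the chromosome's peaks. The highest, 3228 (3228 is also the highest of the whole list), lay from 5085018 to 5087873 and was 2856 bp wide. The second, 3190, lay from 9146310 to 9148908 and was 2599 bp wide, with no other peak for 38.2 kb to its left and 42.0 kb to its right. The third, 3178, lay from 10085415 to 10086432 and was 1018 bp wide. The fourth, 3175, lay in the left arm from 255025 to 256529, and the fifth, 3171, was a broad peak of 5542 bp from 9363161 to 9368702. Because 245 peaks share the value 3100, the order of these peaks against those at 3100 is uncertain.

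The median gap between neighbouring peaks on chromosome IV was longer than on chromosomes I, II and III and shorter than on V. The 1193 gaps, measured from the end of a peak to the start of the next, had a median of 3.69 kb and the middle 50% between 0.844 and 15.2 kb. No peaks overlapped, and the shortest gap was 4 bp. The median gap was 3.01 kb on I, 3.22 kb on II, 2.82 kb on III and 4.72 kb on V. Within chromosome IV the median gap was 4.62 kb in the left arm, 3.14 kb in the centre and 4.03 kb in the right arm. The right arm combined the shortest 25th percentile, 0.656 kb against 1.02 kb in the left arm and 0.856 kb in the centre, with the longest 75th percentile, 20.0 kb against 12.9 and 15.3 kb.

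Long empty stretches took up a large part of chromosome IV. Gaps of 50 kb or more numbered 75 on chromosome IV and added up to 5.93 Mb, or 34.0% of its span. That share was 15.7% on I, 16.9% on III, 30.3% on II and 46.8% on V. The longest gap, 226 kb, lay in the left arm from 3816028 to 4041547. The second, 158 kb from 16224440 to 16382125, and the fourth, 133 kb from 15995047 to 16127746, lay in the right arm inside the emptiest windows. The third, 136 kb, lay in the centre from 4927680 to 5063210 and ended 21.8 kb left of the peak with the highest printed score. The fifth, 125 kb from 13539532 to 13665020, began just right of the fullest stretch. In all, 13 gaps of chromosome IV reached 100 kb, as many as on II, with 3 on I, 4 on III and 30 on V. When the gaps of 50 kb or more were taken out of every span, the density ratio of chromosome IV to the other autosomes was 0.935 (0.877 to 0.996).

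The share of peaks in close runs on chromosome IV was near that on chromosomes I and II. A run was defined as 4 or more peaks with gaps of 2 kb or less. Chromosome IV had 54 runs, which held 256 peaks, or 21.4% (19.1% to 23.9%). The share was 21.7% on I, 20.9% on II, 24.4% on III and 16.3% (14.2% to 18.7%) on V. Of the runs on chromosome IV, 29 had 4 peaks and 25 had 5 or more. These counts were 29 and 34 on I, 25 and 23 on II, 30 and 39 on III, and 26 and 11 on V. No run of chromosome IV had more than 7 peaks, whereas the fullest runs of I, II, III and V held 11, 9, 8 and 15. The median run length was 10.2 kb on chromosome IV, near the 10.5 kb of V and the 10.8 kb of II, with 12.1 kb on I. Peaks in runs had a median width of 1340 bp and a median score of 572, and the 938 others had medians of 1231 bp and 548.

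The fullest runs of chromosome IV had 7 peaks each and lay in the arms. The first, 16.3 kb from 383145 to 399443, was 79.7% covered and held scores from 59.0 to 3100. The next, 15.7 kb from 14784546 to 14800261 in the right arm, was 89.98% covered. The third, 15.3 kb from 2382916 to 2398209, was 66.5% covered and had a median score of 176, against 1582 and 635 in the other two. Of the runs of 6 peaks, the longest were the one around the widest peak of the chromosome and one of 25.5 kb from 15024673 to 15050201, which also holds a peak of 10255 bp. Peaks of high and of low score thus stood side by side within a run.

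The right arm of chromosome IV held both the largest share of peaks in runs and the largest share of isolated peaks. In the right arm 71 of 238 peaks lay in runs, or 29.8% (24.1% to 36.1%), against 19.9% (15.7% to 24.7%) in the left arm and 19.1% (16.1% to 22.3%) in the centre. A peak was called isolated when no other lay within 20 kb on either side. In the right arm 25 peaks were isolated, or 10.5% (6.91% to 15.1%), against 3.74% (1.95% to 6.44%) in the left arm and 2.83% (1.69% to 4.44%) in the centre. The right arm also had the lowest density, and the part of density in these shares was not tested. In the right arms of the other autosomes the share in runs was 8.48% on I, 19.2% on II, 23.7% on III and 17.6% on V, and the isolated share was 4.24%, 4.95%, 1.11% and 12.7%. The right arm of V thus also had the highest value of its chromosome in both shares, although its share in runs was near the 16.6% of the left arm and the 15.9% of the centre of V. Over the whole chromosome 55 peaks, or 4.61%, were isolated, between 1.22% on III and 7.16% on V. Of these 55, 19 had a score of 3100 or more, or 34.5% (22.2% to 48.6%), against 17.2% (12.8% to 22.4%) of the peaks in runs, and these intervals just overlapped. The isolated share was also the higher one on II (25.5% against 16.2%) and V (24.4% against 14.04%), and the lower one on I (12% against 18.5%) and III (11.8% against 19.1%). The isolated peaks were nevertheless narrower, with a median width of 1058 bp.

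**Figure D5:**
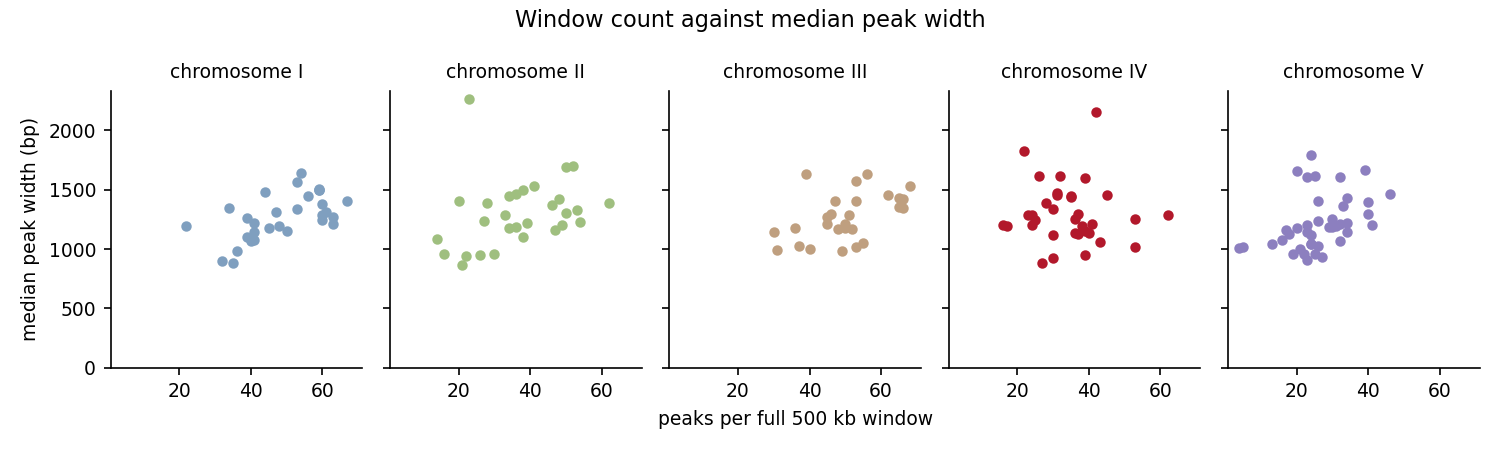
Number of peaks in each full 500 kb window (horizontal axis) against the median width of the peaks in it in bp (vertical axis), 1 panel per autosome. The points of chromosome IV show no trend (Pearson r = -0.06 over 34 windows), and in the other panels r lies between 0.28 and 0.59.

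On chromosome IV, fuller windows did not have wider peaks. Over its 34 full windows of 500 kb the correlation of peak number with median width was -0.06 (Pearson r) and -0.11 (Spearman rho). On the other autosomes Pearson r was 0.59 on I, 0.28 on II, 0.49 on III and 0.39 on V, over 27 to 41 windows. Peak number and median score were likewise related weakly on chromosome IV, with r = -0.25 and a Spearman rho of -0.13. For score, Pearson r was 0.33 on I, -0.18 on II, 0.60 on III and 0.17 on V. Windows share 1 library and the peak caller's merging of close peaks, and they are neighbours on a chromosome. These correlations therefore describe the list and carry no p-value or interval, and their differences between chromosomes were not tested. The fullest window of chromosome IV had a median width of 1286.5 bp, and the window from 11 to 11.5 Mb, with 53 peaks, had a median of 1021 bp although it had the highest covered share. The widest median, 2153.5 bp, was in the window from 7.5 to 8 Mb, which held 42 peaks.

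At the ends of chromosome IV the list began with a peak at base 1 and closed with one of higher score. The first peak ran from 1 to 486, was 486 bp wide and had a score of 283, and the next peak lay 50.6 kb away. The last ran from 17460308 to 17461926, was 1619 bp wide and had a score of 2622, with a neighbour 218 bp before it. The first window of 500 kb held 38 peaks and the last, of 462 kb, held 28, or 60.6 per Mb.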

How the data were processed

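BWA and the build ce10 are named in the submitters' processing notes. Peaks were called with MACS on WormBase WS220, per the file headers and peak records, with the version, threshold and any use of the input not given in the sources used here. Per the labels' protocols, chromatin was fixed with 1% formaldehyde for 10 min and 5 µg of antibody was used. The deposited score of each peak is the authors' value on a scale that is not named. 1 further column of scores, in a list whose names give another target and antibody, was not used. Genome sequence and gene annotation of WS220 were not used here, so the planned distances to gene starts were not computed.

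Peaks were placed by midpoint, and spans ran from first to last peak. Windows under 250 kb inside the span were left out. The intervals printed are exact (Clopper-Pearson or Poisson) at 95%. For the count of alternative values below, medians were judged against 95% intervals taken from the ranked values. The covered share was judged against the interval of chromosome IV's share of all peaks, rescaled, which is not an interval of coverage itself. Functions were tested on simulated peak lists. The members and lists were chosen with earlier results of these data known. Named were the 5 widest peaks, the 5 highest scores, the first and last peak, the 3 fullest and 3 emptiest windows, the 5 longest gaps and the 5 runs with most peaks; other features were singled out after their values were seen. Alternatives were score thresholds, merging, arm, window, width and gap definitions, and leaving out an autosome. Python 3.11.15, numpy 2.4.6, pandas 2.3.3, scipy 1.17.1 and matplotlib 3.10.9 were used.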

Additional observations from a re-analysis of the deposited data

How the results depend on the processing

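Of 54 alternative values, 20 stayed within the 95% interval of the reported value, 31 moved out of it and 3 ratios crossed 1. The intervals of these 3 ratios all included 1, so a reversal is not shown. In the top 25% by score the density ratio to the other autosomes was 1.00 (0.887 to 1.13), and the left to right arm ratio was 0.916 (0.662 to 1.27). The left to right arm ratio was 0.877 (0.617 to 1.24) in the highest of 4 classes of chromosome IV's own scores. The density ratio was 0.946 without chromosome I and 0.949 without III, where the intervals reached 1.01, and 0.756 without V and 0.935 without long gaps, where they lay below 1. The left to right ratio was 1.69 with arms of 20%, and 1.23 in the top 50% by score, where its interval (0.967 to 1.57) included 1. The arm to centre ratio lay between 0.830 and 0.935 under the alternatives run, but its interval, which reached 0.988 as reported, included 1 in the top 25% by score (to 1.08), in the lower 3 score classes (to 1.02), in the highest class (to 1.07) and without windows 32 and 33 (to 1.05). In the top 50% and top 25% by score, peaks covered 9.12% and 6.36% of the span, the median window held 16.5 and 9.5 peaks, and the median width was 2027 and 2711.5 bp. In the same subsets the share at 5 kb or wider was 9.27% and 16.4%, the median gap 12.8 and 30.8 kb, the share in runs 6.18% and 0%, and the median score 2463 and 3100. These subsets hold fewer peaks, of higher score, by construction. With peaks merged across gaps of up to 500 bp, the median window held 28 peaks, the median width was 1370 bp, 9.72% were 5 kb or wider, the median gap was 5.96 kb, 6.98% lay in runs and the median score was 714. The share of broad peaks was 9.30% at 4 kb and 2.60% at 6 kb. The median distance between midpoints was 5.97 kb. Runs held 7.54% of peaks with gaps up to 1 kb and 29.1% up to 3 kb. Without the peaks at 3100 the median score was 322. The cause was not tested for the other changes. The score classes and the removal of windows 32 and 33 were chosen after seeing the data. No paired analysis was possible because 1 library had a peak list. The depth is unknown, so a stretch with no peak is not shown to be unbound.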
